A study of Caenorhabditis elegans with 9 samples.

Results

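The genes described here are *lin-35*, *efl-1*, *dpl-1*, *lin-9*, *lin-37*, *lin-52*, *lin-54*, *lin-13*, *hpl-2* and *lin-15B*, 10 of the 17118 genes that a probe set of the array named alone. They were chosen by name, as subunits of the DREAM complex and as further synMuv B genes, and every probe set annotated to them was taken, 21 that name 1 of these genes alone and 1 that names *hpl-2* together with other genes, of 22548 probe sets in all. Whole newly hatched L1 larvae of the wild-type N2 Bristol strain of *C. elegans* were measured on 9 Affymetrix arrays in 3 groups of 3: larvae labelled *let-418(RNAi)*, larvae labelled *mep-1(RNAi)*, and *gfp(RNAi)* controls. In all groups the mothers were put on HT115 bacteria making the dsRNA as L4 larvae, the progeny hatched without food and were then fed the same bacteria for 3 hours at 25°C, so that the controls had also been fed dsRNA. The dsRNA inserts were 440 bp of *let-418* cDNA and 900 bp of *mep-1*, each array carried RNA of a population of larvae, and the arrays of 1 replicate number share a batch number in the labels. LET-418 is the Mi-2 ATPase and MEP-1 its zinc-finger partner in the MEC complex, and both are themselves synMuv B proteins.

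DREAM is a repressor of transcription that joins an E2F-DP pair (EFL-1 and DPL-1 in *C. elegans*), a pocket protein related to the retinoblastoma protein (LIN-35) and the MuvB core (LIN-9, LIN-37, LIN-52, LIN-54 and LIN-53), and that binds promoters of cell cycle genes, among others. LIN-13, a zinc-finger protein, HPL-2, a homologue of heterochromatin protein HP1, and LIN-15B, a THAP-domain protein, are synMuv B proteins outside that complex. Loss of a synMuv B gene together with a synMuv A gene gives worms with several vulvae, and loss of many synMuv B genes alone lets somatic cells of larvae express germline genes.

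The probe set taken for each targeted gene, the brightest that names it alone, did not show a depletion of its transcript. *let-418* itself had 1627, 1509 and 2322 on its own knockdown arrays and 872, 1162 and 1063 on the *mep-1(RNAi)* arrays, against scaled signals of 831, 1033 and 935 on the *gfp(RNAi)* arrays. The difference on the log2 scale was 0.94 (SE 0.18, limma adjusted p = 0.0043). The signal was thus higher on the arrays of its own knockdown. Where the probe sets lie relative to the dsRNA inserts was not known, so that these signals do not settle whether the labels hold. *mep-1* had 1532, 1647 and 1611 on its own knockdown arrays, against 1586, 1560 and 1435 on the *gfp(RNAi)* arrays, a log2 difference of 0.07 (limma adjusted p = 0.777). Both knockdowns stood apart from the controls in other genes: *pgl-1*, a P granule gene, had 489, 558 and 682 on the *let-418(RNAi)* arrays and 637, 809 and 748 on the *mep-1(RNAi)* arrays, against 168, 188 and 156 on the *gfp(RNAi)* arrays. The groups are named by their labels, and each direction given against *gfp(RNAi)* rests on them.

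Few of these 10 transcripts were called, and for so small a list the counts are near the shares over all genes. None was called higher or lower on the *let-418(RNAi)* arrays than on the *gfp(RNAi)* arrays, and *dpl-1* alone was called, as higher, on the *mep-1(RNAi)* arrays (limma with Benjamini-Hochberg adjustment over all probe sets, called at an adjusted p under 0.05). Of all genes, 10.4% were called higher and 5.94% lower on the *let-418(RNAi)* arrays, and 10.9% higher and 6.67% lower on the *mep-1(RNAi)* arrays. At an unadjusted p under 0.05 limma gave 1 of the 10 genes for *let-418(RNAi)* (*lin-35*) and 2 for *mep-1(RNAi)* (*lin-35* and *dpl-1*). Over the whole array it gave 6268 of 22548 probe sets for *let-418(RNAi)* and 6706 for *mep-1(RNAi)* at that p. The t-test named in the methods gave 2 and 4 of the 10 genes before adjustment and 0 and 0 after it. The median log2 fold change of the 10 genes was -0.15 on the *let-418(RNAi)* arrays and -0.12 on the *mep-1(RNAi)* arrays, against -0.03 and 0.02 over all probe sets. Counted over the 21 probe sets, 0 were called for *let-418(RNAi)*, where 15.4% of all probe sets were called in either direction, and 1 for *mep-1(RNAi)*, where 16.9% were. With a fold change of at least 2 added to the call, 0 of the 10 genes remained in either comparison, against 7.10% of all genes higher and 2.90% lower on the *let-418(RNAi)* arrays and 7.25% higher and 3.38% lower on the *mep-1(RNAi)* arrays.

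The intervals set a limit to the changes of the scaled signal. For the probe set that stands for each gene (the brightest that names it alone), the 95% interval of the ratio to *gfp(RNAi)* lay below 2 for all 10 genes in both comparisons. It lay above a halving of the signal for 9 of 10 genes in both, the exception being *efl-1*, with lower bounds of 0.484 (*let-418(RNAi)*) and 0.486 (*mep-1(RNAi)*). Over all 21 probe sets that name 1 of the genes alone, 18 lay above a halving in each comparison. The lowest bounds were 0.352 for *let-418(RNAi)* (*lin-35* 175838_at) and 0.338 for *mep-1(RNAi)* (*lin-52* 194173_s_at), so that a halving of the signal is not excluded by every probe set. *dpl-1* had the highest upper bounds, at 1.62 (*let-418(RNAi)*) and 1.96 (*mep-1(RNAi)*). These intervals are for 1 gene at a time and rest on 3 arrays a group and on the scaling. With unscaled signals the *mep-1(RNAi)* log2 fold changes were -0.70 for *efl-1*, -0.64 for *lin-35* and 0.31 for *dpl-1*. With scaling they were -0.41, -0.35 and 0.59. For *pgl-1*, the paper's qRT-PCR gave far larger fold changes than these arrays, so that a bound on the signal is not one on the transcript.

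**Figure D1:**
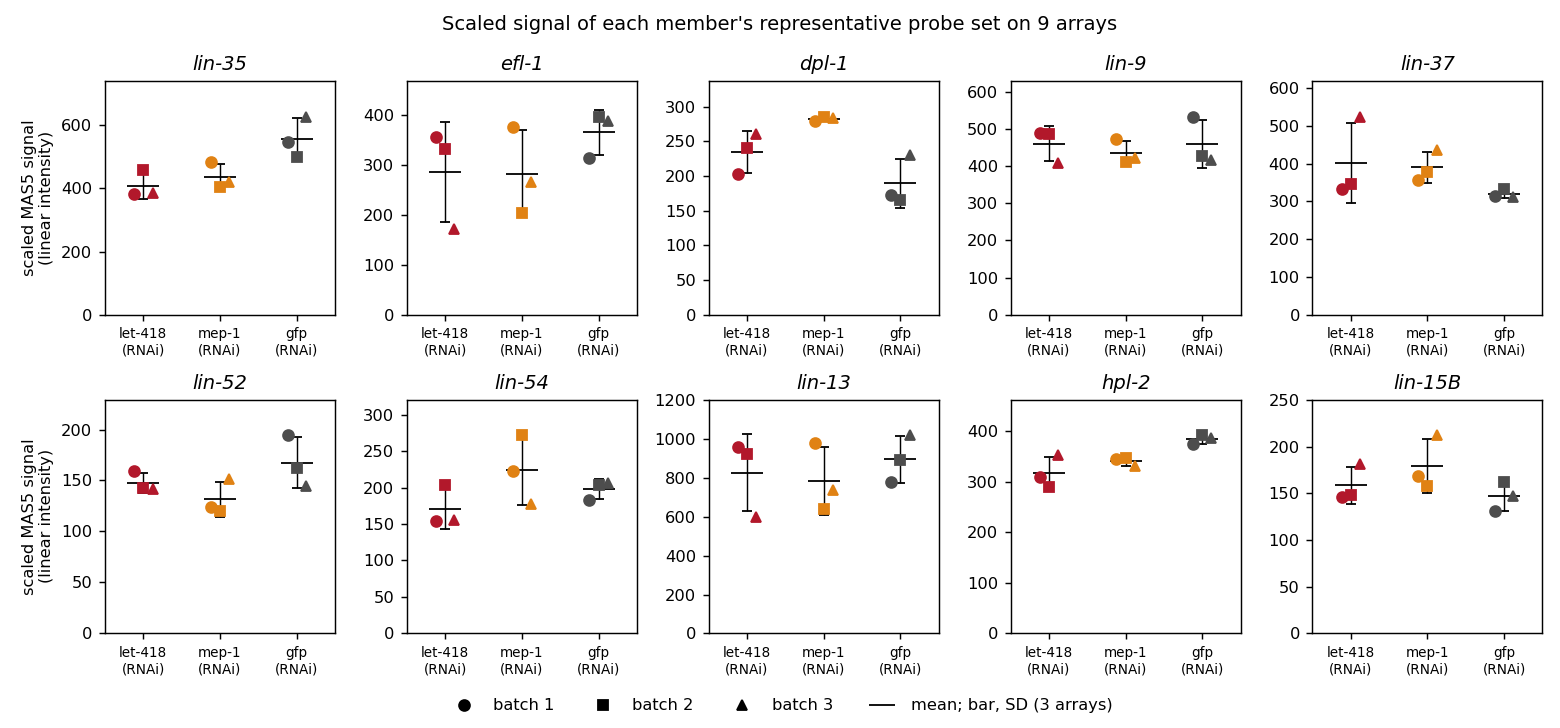
Scaled MAS5 signal (linear intensity, axes from 0) of the representative probe set of each of the 10 genes on the 3 arrays of each group, with symbols for the batch, the group mean and its SD. The *dpl-1* signals of the *mep-1(RNAi)* arrays, 279 to 286, lie above all 3 *gfp(RNAi)* arrays, and the *lin-35* signals of both knockdowns lie below all 3 *gfp(RNAi)* arrays, while most other groups overlap.

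*lin-35*, the only pocket protein gene of *C. elegans*, was measured by a pair of probe sets. The brighter, 188392_s_at, had scaled signals of 382, 457 and 386 on the *let-418(RNAi)* arrays and 482, 405 and 420 on the *mep-1(RNAi)* arrays, against 547, 497 and 626 on the *gfp(RNAi)* arrays. Every knockdown array was below every control array, which also fixes the sign of the difference in all 3 batches of both comparisons. On the log2 scale the difference was -0.45 for *let-418(RNAi)* (SE 0.15, 95% interval -0.77 to -0.13, limma adjusted p = 0.0624) and -0.35 for *mep-1(RNAi)* (SE 0.15, 95% interval -0.67 to -0.03, limma adjusted p = 0.128). Neither passed the threshold. With quantile normalization in place of the scaling the *let-418(RNAi)* difference did, at -0.49 with a limma adjusted p of 0.0404. Its other probe set, 175838_at, spread far more widely, with 240, 276 and 95.3 on the *let-418(RNAi)* arrays and 284, 121 and 166 on the *mep-1(RNAi)* arrays, against 178, 251 and 432 on the *gfp(RNAi)* arrays. Its fold changes also lay below 0, at -0.54 and -0.59, but with standard errors of 0.44, and the groups overlapped.

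Here and in the other results, whole larvae were measured, and fewer cells that express a gene cannot be told apart from less RNA per cell.

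*dpl-1* encodes the DP protein, which pairs with E2F for binding DNA. Its 1 probe set, 191593_s_at, had scaled signals of 279, 286 and 283 on the *mep-1(RNAi)* arrays, against 173, 165 and 230 on the *gfp(RNAi)* arrays, with no overlap. The signal was 1.51-fold that of the controls (95% interval 1.16 to 1.96), or 0.59 on the log2 scale (SE 0.17, limma adjusted p = 0.0369). Within the 3 batches the differences were 0.69, 0.79 and 0.30, their sign being fixed by the lack of overlap. The coefficient of variation was 1.24% over the *mep-1(RNAi)* arrays, the smallest of any group among the 21 probe sets, and 18.7% over the *gfp(RNAi)* arrays.

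On the *let-418(RNAi)* arrays *dpl-1* had 202, 241 and 261, of which the lowest fell among the controls. The log2 fold change was 0.32 (SE 0.17, limma adjusted p = 0.267). The *mep-1(RNAi)* arrays were above all 3 *let-418(RNAi)* arrays, but the difference between the knockdowns, 0.27 on the log2 scale (SE 0.17, 95% interval -0.11 to 0.65, limma adjusted p = 0.908), did not pass the threshold, so that the rise is not shown to belong to 1 knockdown. The call was lost when any of the 3 *mep-1(RNAi)* arrays was left out, or replicate 1 or 2 of *gfp(RNAi)* or replicate 2 of *let-418(RNAi)*, with limma adjusted p of 0.0549 to 0.135. It was also lost with quantile normalization (0.48, limma adjusted p = 0.0894) and with unscaled signals (0.31, limma adjusted p = 0.654).

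*efl-1*, the E2F gene whose protein pairs with DPL-1 in DREAM, was called in neither comparison. Its brighter probe set, 173791_at, had 355, 332 and 172 on the *let-418(RNAi)* arrays and 376, 205 and 266 on the *mep-1(RNAi)* arrays, against 314, 396 and 387 on the *gfp(RNAi)* arrays. The log2 fold changes were -0.42 and -0.41 (SE 0.29 each, limma adjusted p = 0.393 and 0.387). They moved to -0.08 without *let-418(RNAi)* replicate 3, the array of 172, and to -0.20 without *mep-1(RNAi)* replicate 2, the array of 205. The other probe set, 186479_s_at, had 111, 141 and 153 on the *let-418(RNAi)* arrays and 143, 157 and 190 on the *mep-1(RNAi)* arrays, against 125, 129 and 142 on the *gfp(RNAi)* arrays, with log2 fold changes of 0.02 and 0.30 (SE 0.19 each, limma adjusted p = 0.962 and 0.344). There the *mep-1(RNAi)* arrays lay just above the controls. The direction for *efl-1* therefore depended on the probe set.

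**Figure D2:**
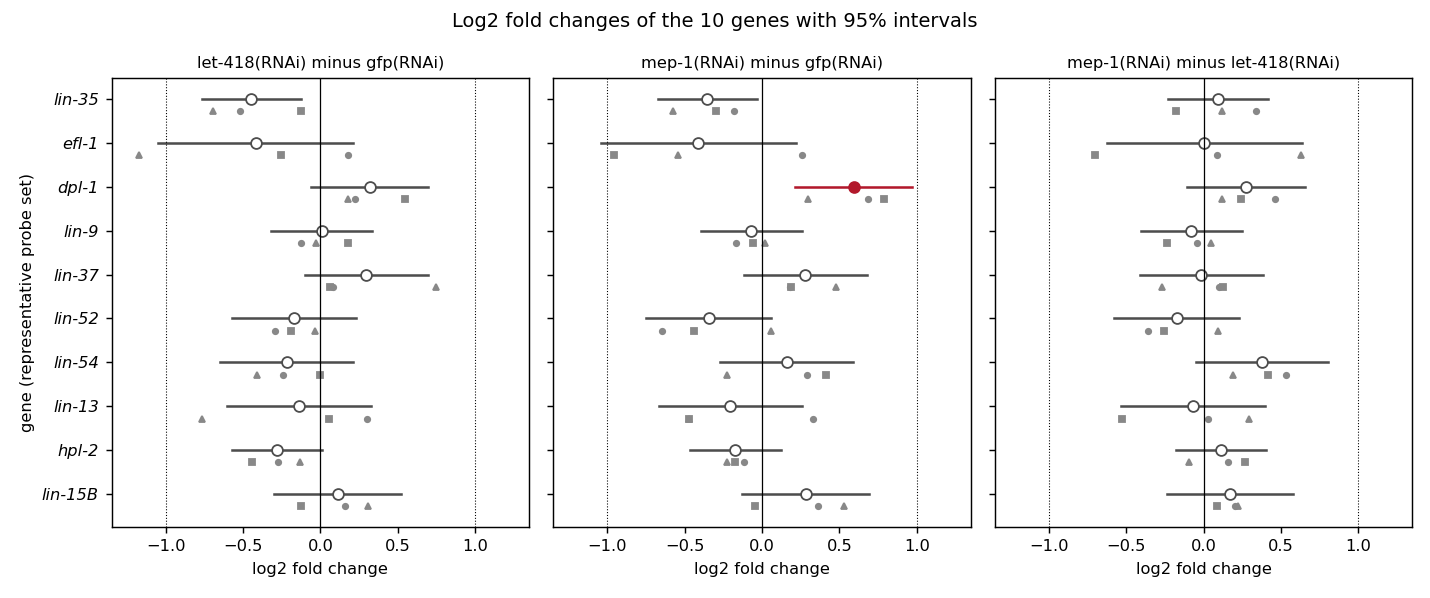
Log2 fold changes of the representative probe sets in the 3 comparisons (circles, filled where the adjusted p was under 0.05) with 95% intervals, and below each the differences within batch 1 (small circle), 2 (square) and 3 (triangle), with dotted lines at a 2-fold change. The interval of *dpl-1* for *mep-1(RNAi)*, 0.21 to 0.97, and those of *lin-35* against *gfp(RNAi)* lie to 1 side of 0, and the rest include 0.

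The MuvB core is the part of DREAM that stays together when the pocket protein leaves it. *lin-9*, its conserved scaffold gene, had 488, 485 and 408 on the *let-418(RNAi)* arrays and 473, 411 and 421 on the *mep-1(RNAi)* arrays, against 532, 428 and 415 on the *gfp(RNAi)* arrays (probe set 172019_x_at). The log2 fold changes were 0.01 and -0.07 with standard errors of 0.15, and the groups overlapped. With unscaled signals the *let-418(RNAi)* value was -0.06. Its other 2 probe sets gave -0.16 and 0.18 for *let-418(RNAi)* and 0.16 and 0.27 for *mep-1(RNAi)*, none called. All 3 carry the suffix of probe sets that can bind related transcripts.

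*lin-37*, whose protein is needed for repression by the core, was the only gene with every array of both knockdowns above every control array, by a margin lost in rounding at the closest. Probe set 174872_s_at had 333, 347 and 524 on the *let-418(RNAi)* arrays and 356, 378 and 436 on the *mep-1(RNAi)* arrays, against 314, 333 and 313 on the *gfp(RNAi)* arrays. The log2 fold changes were 0.30 and 0.28 (SE 0.18 each, limma adjusted p = 0.329 and 0.343), and in batches 1 and 2 of *let-418(RNAi)* they were 0.08 and 0.06, against 0.75 in batch 3. With unscaled signals the *mep-1(RNAi)* value was -0.0037, so that its direction rested on the scaling. The second probe set, 183157_s_at, gave 0.17 and 0.12, with overlapping groups.

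*lin-52*, which encodes the small subunit that contacts the pocket protein, had negative fold changes in both of its probe sets, none called. Probe set 187296_at had 159, 143 and 142 on the *let-418(RNAi)* arrays and 124, 120 and 151 on the *mep-1(RNAi)* arrays, against 194, 163 and 145 on the *gfp(RNAi)* arrays, with log2 fold changes of -0.17 and -0.34 (SE 0.18 each, limma adjusted p = 0.612 and 0.243). The dimmer 194173_s_at gave -0.46 and -0.76, with standard errors of 0.37 (limma adjusted p = 0.474 and 0.194). The *gfp(RNAi)* array of batch 1 was the highest of the 9 in both probe sets, and the groups overlapped.

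*lin-54*, the DNA-binding subunit of the core, had 155, 204 and 156 on the *let-418(RNAi)* arrays and 223, 272 and 177 on the *mep-1(RNAi)* arrays, against 183, 204 and 207 on the *gfp(RNAi)* arrays (177366_s_at). The signs were opposite, -0.22 for *let-418(RNAi)* and 0.16 for *mep-1(RNAi)*, and *mep-1(RNAi)* exceeded *let-418(RNAi)* in all 3 batches, though with unscaled signals the *mep-1(RNAi)* value was -0.12. The difference between the knockdowns was 0.38 (SE 0.20, 95% interval -0.05 to 0.81, limma adjusted p = 0.888), the largest between the knockdowns among the 10 genes and not past the threshold.

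*lin-13* encodes the zinc-finger protein that recruits HPL-2. Probe set 173462_s_at had 959, 925 and 601 on the *let-418(RNAi)* arrays and 980, 642 and 737 on the *mep-1(RNAi)* arrays, against 779, 891 and 1021 on the *gfp(RNAi)* arrays. The fold changes were -0.14 and -0.20 (SE 0.21 each), and without *let-418(RNAi)* replicate 3 the *let-418(RNAi)* value was 0.08. The second, 189214_s_at, had 628, 725 and 705 on the *let-418(RNAi)* arrays and 773, 842 and 845 on the *mep-1(RNAi)* arrays, against 615, 728 and 631 on the *gfp(RNAi)* arrays. Here every *mep-1(RNAi)* array was above both other groups, with a log2 fold change of 0.32 (SE 0.13, 95% interval 0.04 to 0.60, limma adjusted p = 0.117), while *let-418(RNAi)* gave 0.06.

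*hpl-2* was covered by 5 probe sets that name it alone, all of the kind that can bind related transcripts. The brightest, 172919_x_at, had 310, 289 and 353 on the *let-418(RNAi)* arrays and 346, 348 and 330 on the *mep-1(RNAi)* arrays, against 375, 392 and 386 on the *gfp(RNAi)* arrays. Both knockdowns were below all controls, with log2 fold changes of -0.28 and -0.17 (SE 0.13 each, limma adjusted p = 0.195 and 0.444). The other 4 did not share this pattern: their fold changes ran over both signs, from -0.15 to 0.18 for *let-418(RNAi)* and from -0.08 to 0.14 for *mep-1(RNAi)*, and the groups overlapped in each. The probe set that names *hpl-2* with H04D03.6, C38D4.10 and W05F2.8 (180081_s_at) had 166, 170 and 182 on the *mep-1(RNAi)* arrays, against 145, 113 and 102 on the *gfp(RNAi)* arrays, a difference of 0.54 on the log2 scale (SE 0.18, limma adjusted p = 0.0688). Which of its transcripts it measured cannot be told from the signal.

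*lin-15B* had 147, 148 and 182 on the *let-418(RNAi)* arrays and 169, 158 and 212 on the *mep-1(RNAi)* arrays, against 131, 162 and 147 on the *gfp(RNAi)* arrays (191304_s_at). The log2 fold changes were 0.11 and 0.28 (SE 0.19 each, limma adjusted p = 0.761 and 0.355), and the groups overlapped. With quantile normalization the *let-418(RNAi)* value was -0.05, and with unscaled signals the *mep-1(RNAi)* value was -0.0025.

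Over the representative probe sets of the 10 genes, all 3 arrays of a knockdown lay above all 3 *gfp(RNAi)* arrays for 1 gene with *let-418(RNAi)* (*lin-37*) and for 2 with *mep-1(RNAi)* (*dpl-1* and *lin-37*), where 18.8% and 19.0% of all genes did so. They lay below for 2 genes in each comparison (*lin-35* and *hpl-2*), where 16.2% and 15.4% of all genes did so. These shares are near those of the whole array. Between *mep-1(RNAi)* and *let-418(RNAi)*, 0 of the 10 genes were called, and 1 gene of the array was (0.00584%). At an unadjusted p under 0.05, limma and the t-test gave 0 of the 10 genes, and limma gave 1264 of all 22548 probe sets. The 95% intervals of the ratio between the knockdowns ran from 0.648 (*efl-1*) to 1.75 (*lin-54*) at their widest.

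**Figure D3:**
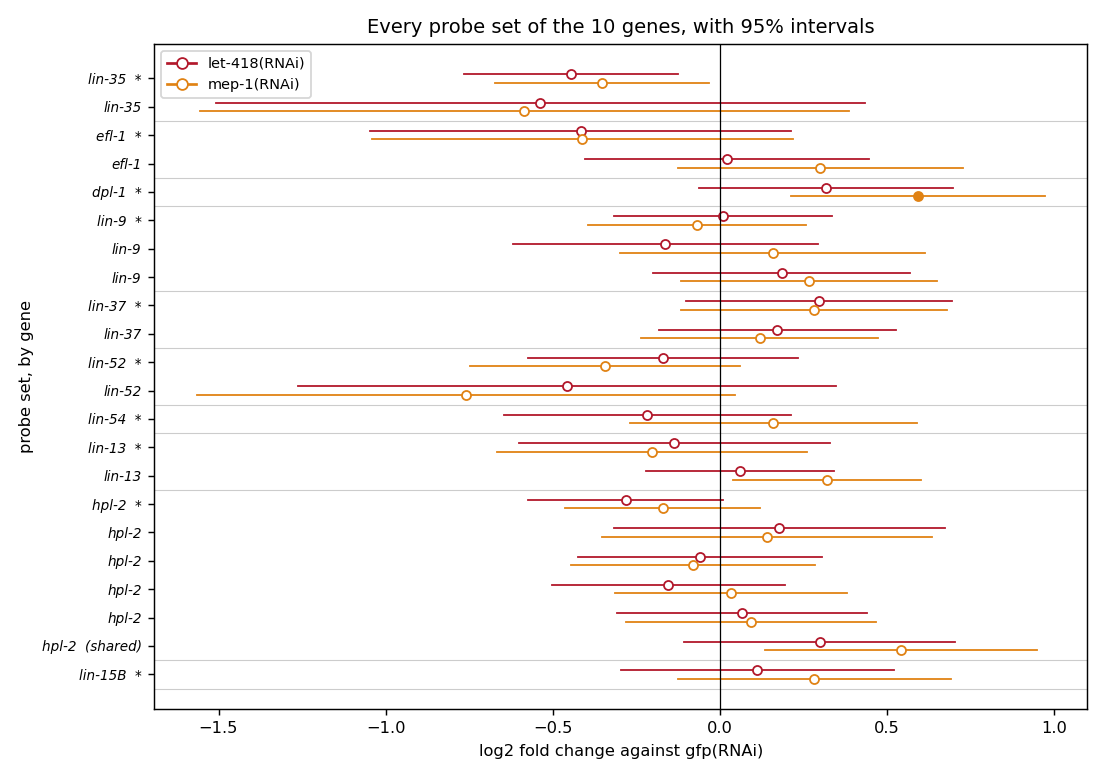
Log2 fold changes against *gfp(RNAi)* of all 22 probe sets of the 10 genes, with 95% intervals, for the *let-418(RNAi)* and the *mep-1(RNAi)* arrays (a star marks the representative probe set, filled circles an adjusted p under 0.05, and "shared" the probe set that names other genes too). The probe sets of *lin-35*, *lin-37* and *lin-52* lie on the same side of 0, and those of *efl-1*, *lin-13*, *lin-9* and *hpl-2* lie on both.

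Part of the spread within groups was shared between probe sets of different genes. The deviations of the log2 signal from its group mean were nearly parallel for 3 probe sets of different genes, *lin-35* 175838_at, *efl-1* 173791_at and *lin-13* 173462_s_at: Pearson's r over the 9 arrays was 0.91 for *lin-35* with *efl-1*, 0.97 for *lin-35* with *lin-13* and 0.97 for *efl-1* with *lin-13*. These were the highest r among all pairs of the 21 probe sets, and so are selected values. The points share arrays and group means, and the correlation is given as a description. All 3 were low on *let-418(RNAi)* replicate 3 (-0.95, -0.67 and -0.43) and on *mep-1(RNAi)* replicate 2 (-0.56, -0.42 and -0.27), and high on replicate 1 of both knockdowns (0.38, 0.38 and 0.24 for *let-418(RNAi)*, and 0.67, 0.46 and 0.34 for *mep-1(RNAi)*). The other probe sets of *efl-1* and *lin-13* did not follow, with r of -0.53 and -0.35 to the first of their own gene, while that of *lin-35* followed in part (0.70).

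Other probe sets shared the pattern. Of the 11274 probe sets with a mean log2 signal at or above the median, 361 (3.20%) had deviations with an r of at least 0.9 to the mean of the 3, and 107 (0.949%) an r of -0.9 or lower. The 3 themselves were not left out of the first count. In the opposite direction, the deviations of *lin-37* 174872_s_at and *lin-9* 171732_x_at had an r of -0.97. The knockdown arrays on which *lin-35* 175838_at, *efl-1* 173791_at and *lin-13* 173462_s_at were lowest also had the largest scaling factors. These were 1.58 for *mep-1(RNAi)* replicate 2 and 1.21 for *let-418(RNAi)* replicate 3, against 0.758 to 1.05 for the other 7. The 3 probe sets were also low on *gfp(RNAi)* replicate 1 (-0.59, -0.21 and -0.19), whose factor was 1.00. On *let-418(RNAi)* replicate 2, with a factor of 1.05, they were high (0.58, 0.29 and 0.19). The part of the scaling in the pattern was not tested. With both *let-418(RNAi)* replicate 3 and *mep-1(RNAi)* replicate 2 left out, the log2 fold change of *dpl-1* for *mep-1(RNAi)* was 0.58 (limma adjusted p = 0.105). That of *lin-35* for *let-418(RNAi)* was then -0.41 (limma adjusted p = 0.176).

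**Figure D4:**
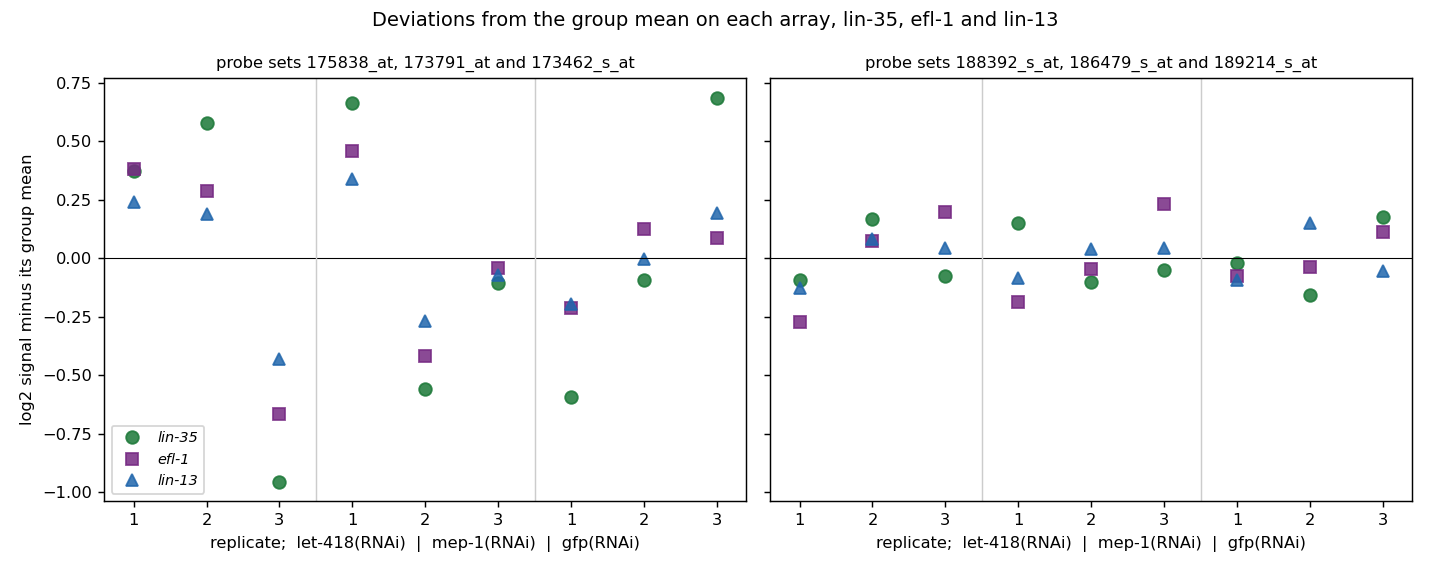
Log2 signal minus its group mean on each array for *lin-35*, *efl-1* and *lin-13*, with the 3 probe sets that move in parallel on the left and the other probe set of each gene on the right. On the left all 3 genes lie lowest on *let-418(RNAi)* replicate 3, at -0.95 to -0.43, and on the right they spread over both signs there.

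The genes whose signals over the 9 arrays were most like those of a member were found among 8378 other genes with a mean signal at or above the median. For *dpl-1* they were *hrpl-1* (an hnRNP gene, r = 0.97), *tba-7* (an alpha-tubulin gene, r = 0.97) and Y32H12A.7 (r = 0.96). *hrpl-1* had 305, 394 and 395 on the *let-418(RNAi)* arrays and 400, 456 and 469 on the *mep-1(RNAi)* arrays, against 227, 216 and 296 on the *gfp(RNAi)* arrays, and was called in both comparisons (0.57 and 0.85, limma adjusted p = 0.044 and 0.00508). For *lin-35* they were Y71H2AM.1 (r = 0.97), *nol-14* (0.96) and *slc-30A9* (0.95), all called lower on the *let-418(RNAi)* arrays, the last 2 at -0.81 and -0.56 on the log2 scale. Y71H2AM.1 had 223, 299 and 240 on the *let-418(RNAi)* arrays, against 463, 444 and 626 on the *gfp(RNAi)* arrays. On the *mep-1(RNAi)* arrays Y71H2AM.1 and *slc-30A9* were called lower too, and *nol-14* was not (-0.54, limma adjusted p = 0.115). The correlation takes in the differences between groups, so that a pattern shared with a member follows from the selection. For *efl-1* they were *nhr-49* (a nuclear hormone receptor gene, r = 0.99), F37B12.3 and *snfc-5* (both 0.98), and for *lin-13* T23F11.4, *npp-1* (both 0.99) and *pde-4* (0.98). *nhr-49* had 2777, 2861 and 1545 on the *let-418(RNAi)* arrays and 3249, 1579 and 2186 on the *mep-1(RNAi)* arrays, against 2581, 3136 and 3133 on the *gfp(RNAi)* arrays, low on the same 2 arrays as *efl-1*.

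The closest for *lin-52* were the neuropeptide gene *flp-1* (r = 0.98), R05D7.1 and the antimicrobial peptide gene *nlp-29* (both 0.95), for *lin-37* *wdr-37*, *sdpn-1* and *usp-50* (all 0.95), and for *hpl-2* *nspg-9* (0.96), *dhs-27* (0.94) and the SR protein gene *rsp-5* (0.93). For *lin-54* they were *nuaf-6*, *wah-1* and Y48A6C.4 (0.94, 0.92 and 0.90), for *lin-9* F25B4.4, K04F10.7 and F43G9.13 (0.89 each), and for *lin-15B* *sacm-1L*, *pitr-3* and *nhr-154* (0.94, 0.90 and 0.89). Over the 3 closest genes of all 10, r ran from 0.89 to 0.99, with no test of these values. None of the 10 genes was among the 3 closest of another, though *efl-1* and *lin-13* had an r of 0.95 with each other.

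The neighbours of the 10 genes in the WBcel235 annotation were 20 protein-coding genes, of which 17 had a probe set of their own. The largest change among them stood beside *lin-35*. C32F10.4, whose annotated span overlaps that of *lin-35*, had 1603, 1379 and 1666 on the *let-418(RNAi)* arrays and 1081, 1197 and 1537 on the *mep-1(RNAi)* arrays, against 531, 562 and 525 on the *gfp(RNAi)* arrays. It rose by 1.52 on the log2 scale for *let-418(RNAi)* and by 1.22 for *mep-1(RNAi)* (SE 0.15 each, limma adjusted p = 3.72e-05 and 0.000179), within batches by 1.30 to 1.67 and 1.03 to 1.55, while *lin-35* itself lay below the controls. On the other side of *lin-35*, *vps-51*, a gene of vesicle tethering, had 479, 566 and 446 on the *let-418(RNAi)* arrays, against 692, 692 and 621 on the *gfp(RNAi)* arrays, and fell by 0.43 (limma adjusted p = 0.0483). Its value for *mep-1(RNAi)*, -0.27, was not called.

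Beside *dpl-1*, the overlapping T23G7.2 had 503, 551 and 463 on the *let-418(RNAi)* arrays and 619, 490 and 443 on the *mep-1(RNAi)* arrays, against 410, 343 and 350 on the *gfp(RNAi)* arrays. Its log2 fold changes were 0.46 and 0.48 (limma adjusted p = 0.0749 and 0.059), called in neither comparison. *lin-15A*, the synMuv A gene that lies next to *lin-15B*, had 333, 281 and 353 on the *let-418(RNAi)* arrays and 250, 300 and 337 on the *mep-1(RNAi)* arrays, against 285, 230 and 225 on the *gfp(RNAi)* arrays, with 0.39 and 0.26 (limma adjusted p = 0.165 and 0.355). C03B8.3 beside *lin-13* was called higher for *mep-1(RNAi)* (1.06, limma adjusted p = 0.0396) at dim signals, with means of 47.2 on the *mep-1(RNAi)* arrays and 22.4 on the *gfp(RNAi)* arrays. The other 12 measured neighbours were called in neither comparison. Of the 17 measured, 2 were thus called in each comparison, which is near the shares over all genes. Those were 10.4% higher and 5.94% lower for *let-418(RNAi)*, and 10.9% higher and 6.67% lower for *mep-1(RNAi)*.

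Calls among the other synMuv genes and in the lists that follow are set against those over all genes. These were 10.4% higher and 5.94% lower for *let-418(RNAi)* and 10.9% higher and 6.67% lower for *mep-1(RNAi)*. At an unadjusted p under 0.05, limma gave 6268 and 6706 of all 22548 probe sets in either direction. Of 10 other synMuv B genes measured (*lin-65* and *ubc-9* had no probe set used here), 1 was called for *let-418(RNAi)* and 0 for *mep-1(RNAi)*, with medians of -0.15 and -0.07. At an unadjusted p under 0.05 limma gave 4 and 1, and the t-test 1 and 1. The 1 called was *let-418* itself.

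*lin-53*, which encodes the histone-binding subunit that DREAM shares with NuRD, gave -0.34 and -0.12, and the histone deacetylase gene *hda-1* gave -0.14 and 0.09, none called. The 4 synMuv A genes, the 4 synMuv C genes of the Tip60 type and the 7 measured synMuv suppressor genes, such as *mes-4* and *isw-1*, had 0 calls in either comparison. At an unadjusted p under 0.05 limma gave 1, 0 and 1 of them for *let-418(RNAi)* and 0, 0 and 1 for *mep-1(RNAi)*, and the t-test 0, 0 and 1 and 0, 0 and 2. Their medians were -0.02, -0.09 and -0.20 for *let-418(RNAi)* and -0.01, -0.24 and -0.15 for *mep-1(RNAi)*. The 10 genes of the vulval EGF/Ras pathway had 1 call in each comparison, *mek-2*, the MAP kinase kinase gene, which fell by 0.63 and 0.74 (limma adjusted p = 0.0223 and 0.00878).

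Among 9 paralogs and partners of the 10 genes, *cyd-1*, which encodes the cyclin D that acts against LIN-35, fell in both knockdowns. It had 251, 243 and 172 on the *let-418(RNAi)* arrays and 254, 201 and 203 on the *mep-1(RNAi)* arrays, against 350, 379 and 354 on the *gfp(RNAi)* arrays, with log2 fold changes of -0.72 and -0.73 (SE 0.18 each, limma adjusted p = 0.0187 and 0.0169). The groups did not overlap. Its partner gene *cdk-4* gave -0.69 and -0.68 without a call, *cki-1*, the CDK inhibitor gene, 0.21 and -0.29, the HP1 paralog *hpl-1* 0.10 and -0.27 and the E2F paralog *efl-2* -0.73 and -0.81, none called. *cul-1*, the cullin gene, rose by 0.49 for *mep-1(RNAi)* (limma adjusted p = 0.0441). The medians of the 9 were 0.10 and -0.29.

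Genes of the G1/S transition and of DNA replication, of the kind that E2F and DREAM are known to bind in animals, had several members lower in the knockdowns. Of 19 measured (*cdc-45* had no probe set used here), 9 fell and 0 rose for *let-418(RNAi)* and 8 fell and 0 rose for *mep-1(RNAi)*, with medians of -0.50 and -0.48. Over all genes, 5.94% were called lower for *let-418(RNAi)* and 6.67% for *mep-1(RNAi)*. *mcm-7*, which encodes a replicative helicase subunit, had 978, 963 and 1054 on the *let-418(RNAi)* arrays and 1049, 1138 and 863 on the *mep-1(RNAi)* arrays, against 1522, 2032 and 2177 on the *gfp(RNAi)* arrays (-0.92 and -0.90, limma adjusted p = 0.00245 and 0.00263). In the paper's qRT-PCR, however, *mcm-7* was not affected in either knockdown, and the paper proposes a false positive signal on its *let-418(RNAi)* arrays. *mcm-5* had 671, 787 and 704 on the *let-418(RNAi)* arrays and 778, 820 and 745 on the *mep-1(RNAi)* arrays, against 1222, 1267 and 1320 on the *gfp(RNAi)* arrays. *mcm-3* fell by 0.84 and 0.81 and *tyms-1*, the thymidylate synthase gene, by 0.85 and 0.85 on the log2 scale. With unscaled signals 1 and 4 genes of the list were called lower in place of 9 and 8, with the methods' t-test after adjustment 5 and 3, and with a fold change of at least 2 added to the call 0 and 0.

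Of 20 mitotic genes, 5 fell and 1 rose for *let-418(RNAi)*, and 0 fell and 1 rose for *mep-1(RNAi)*, with medians of -0.20 and -0.04. The shares over all genes were 5.94% lower and 10.4% higher for *let-418(RNAi)*, and 6.67% lower and 10.9% higher for *mep-1(RNAi)*. At an unadjusted p under 0.05, 5 were lower for *mep-1(RNAi)* with limma and 2 with the t-test. Of all 22548 probe sets, 6706 had such a p with limma in either direction. With the batch as a block, 3 fell for *let-418(RNAi)*. *cyb-3*, a cyclin B gene, fell by 0.76, *cdk-1* by 0.60 and the Polo kinase gene *plk-1* by 0.57 on the *let-418(RNAi)* arrays (limma adjusted p = 0.00627, 0.0172 and 0.041). The riser in both was *cdc-25.1*, a Cdc25 phosphatase gene known for its role in the germline, with 194, 173 and 137 on the *let-418(RNAi)* arrays and 207, 166 and 149 on the *mep-1(RNAi)* arrays, against 86.8, 109 and 59.9 on the *gfp(RNAi)* arrays (1.01 and 1.06). Of 13 P granule and germline genes, 12 rose in both comparisons, with medians of 2.80 and 2.85. The paper names several of the 13, such as *pgl-1*, *glh-1* and *him-3*, as derepressed on these same arrays, so that the count is no separate evidence. *prg-1*, a Piwi gene, had 3561, 4139 and 4228 on the *let-418(RNAi)* arrays and 4719, 5488 and 4146 on the *mep-1(RNAi)* arrays, against 348, 316 and 302 on the *gfp(RNAi)* arrays (3.63 and 3.89), and *glh-1*, *deps-1* and *mex-5* rose by 2.92 to 3.57. The 2 comparisons share their *gfp(RNAi)* arrays and are not independent of each other.

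**Figure D5:**
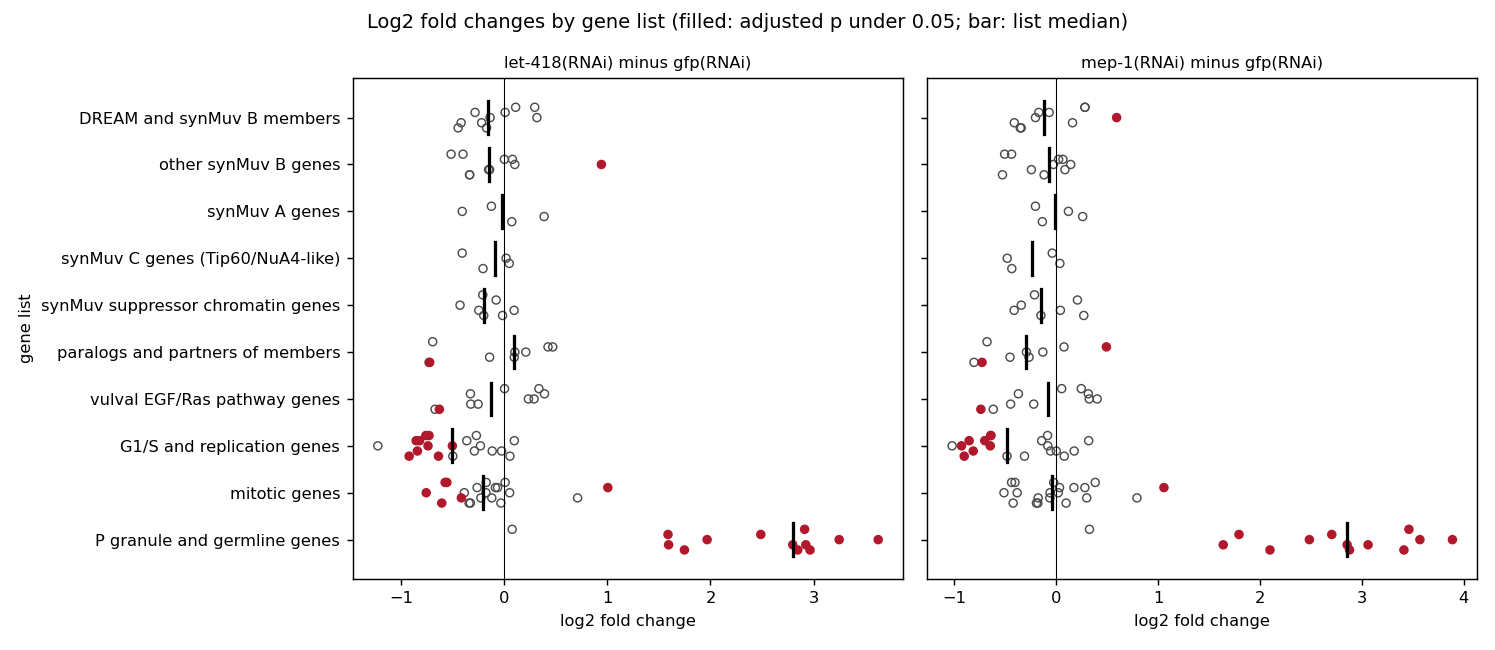
Log2 fold changes against *gfp(RNAi)* of the genes of 10 lists in both knockdowns (points, filled at an adjusted p under 0.05, with a bar at the list's median). The synMuv lists gather near 0, with medians from -0.24 to -0.01, and the replication genes lie lower, at -0.50 and -0.48. Of 13 P granule and germline genes, 12 lie to the right, with medians of 2.80 and 2.85. The paper names several of the 13 as derepressed on these same arrays.

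Some markers of cell types moved as well, and their part in the values above was not tested. Beside the counts stand the shares over all genes, 10.4% higher and 5.94% lower for *let-418(RNAi)* and 10.9% higher and 6.67% lower for *mep-1(RNAi)*. At an unadjusted p under 0.05, limma gave 6268 and 6706 of all 22548 probe sets in either direction. The summed signals given below are weighted to the brightest markers of each list. Of 6 intestine markers, *elt-2* rose in both comparisons, and 4 fell for *let-418(RNAi)* and 3 for *mep-1(RNAi)*, *vha-6*, *ges-1* and *pho-1* in both. The 4 were 1 with unscaled signals, without the trend, or with the methods' t-test after adjustment. Their summed signal was 13374 to 15391 on the *let-418(RNAi)* arrays and 14533 to 17892 on the *mep-1(RNAi)* arrays, against 17704 to 20090 on the *gfp(RNAi)* arrays. Of 5 neuron markers 1 fell (*rab-3*) for *let-418(RNAi)* and 2 for *mep-1(RNAi)*, with sums of 4110 to 5655 on the *let-418(RNAi)* arrays and 3679 to 5179 on the *mep-1(RNAi)* arrays, against 5907 to 6541 on the *gfp(RNAi)* arrays. The neuron marker *unc-119* went the other way, at 0.58 and 0.53 on the log2 scale (limma adjusted p = 0.0646 and 0.0812). At an unadjusted p under 0.05, limma gave 1 neuron marker higher and 1 lower for *let-418(RNAi)*, and 1 higher and 2 lower for *mep-1(RNAi)*. Of 5 body wall muscle markers, 0 were called for *let-418(RNAi)* (1 at an unadjusted p under 0.05 with limma and 1 with the t-test) and 1 fell for *mep-1(RNAi)*. Their sums were 22375 to 26475 on the *let-418(RNAi)* arrays and 25455 to 28031 on the *mep-1(RNAi)* arrays, against 24653 to 26167 on the *gfp(RNAi)* arrays. Of 5 hypodermis markers, 0 were called in both (3 and 1 at an unadjusted p under 0.05 with limma, 0 and 0 with the t-test). Their sums were 17329 to 22110 on the *let-418(RNAi)* arrays and 13819 to 21785 on the *mep-1(RNAi)* arrays, against 5349 to 14981 on the *gfp(RNAi)* arrays. The collagen genes *dpy-5* and *rol-6* made up most of these sums. The lowest control was *gfp(RNAi)* replicate 3, where they had 1898 and 1417, against 7152 and 5143 on replicate 1 and 5749 and 4561 on replicate 2. For *let-418(RNAi)*, *dpy-7* gave 0.004, *nhr-23* -0.06 and *elt-1* 0.42 on the log2 scale. For *mep-1(RNAi)* they gave -0.07, 0.43 and 0.37. Of 8 adult and gamete markers, *oma-1* and *rme-2* rose in both. The sums over the 8 were 361 to 404 on the *let-418(RNAi)* arrays and 396 to 461 on the *mep-1(RNAi)* arrays, against 202 to 263 on the *gfp(RNAi)* arrays, and *vit-2* and *spe-11* lay at or below 12.6 on every array.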

How the data were processed

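RNA of whole L1 larvae was measured on 9 arrays (3 per group). The deposited values are MAS5 signals, intensities on a linear scale that the authors computed for each probe set, and their methods name AGCC, a global scaling to a trimmed mean and a t-test at p of at most 0.01. The version of AGCC and a genome build are not given in the sources used here, and the WormBase release that the methods name for curating gene lists was not used here. The deposited trimmed means differed between arrays (209 to 436), so each array was multiplied by a factor (0.758 to 1.58) that set its mean, trimmed by 2% at each end, to 330.2. All 9 columns of values were matched to arrays. No pair of the 36 array pairs held identical values.

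The log2 signals of all 22548 probe sets were fitted with 3 group means in limma 3.58.1 (R 4.3.3), using lmFit and then eBayes with trend, with 2-sided tests and Benjamini-Hochberg adjustment, and called at an adjusted p under 0.05. Gene names came from the platform's annotation, updated through the WBcel235 gene table: 20766 probe sets named 1 gene, 887 several and 895 none. The brightest probe set naming a gene alone stood for it. Probe sets ending in _s_at or _x_at can bind several transcripts. The members and lists were chosen with earlier results of these data known. Named are all members, the dsRNA targets, up to 4 called genes of each list with the largest change for *let-418(RNAi)*, the 3 genes most correlated with each member, and neighbours. Other genes named were chosen after their values were seen.

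The labels give each replicate number as a batch number, and arrays of 1 number were taken as paired on that ground alone. The sources used here do not describe how the groups of a batch were handled together. Residual correlations were -0.03 to 0.10 within a number (9 pairs, mean 0.04) and -0.14 to 0.10 between numbers (18 pairs, mean -0.02). 1 alternative fitted the batch as a block. The others were quantile normalization, unscaled signals, an offset of 21.6 (the 25th percentile) before log2, leaving out the dimmest 25% of probe sets, no trend, a fit of the 6 arrays compared alone, a 2-fold limit, the methods' t-test, single arrays left out, averaging the probe sets of a gene, and, chosen after seeing the data, 2 arrays left out together. Precision is limited by 3 arrays per group. The files hold no detection calls, and signals of the members ran from 48.5 to 1021, against a 25th percentile of 19.4 to 23.8 per array. Figures were drawn with matplotlib 3.10.9 in Python 3.11.15.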

Additional observations from a re-analysis of the deposited data

How the results depend on the processing

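The count of 0 of the 10 genes called for *let-418(RNAi)* against *gfp(RNAi)* held under every alternative except quantile normalization, which gave 1 (*lin-35*), and ran from 0 to 0 with single arrays left out. The count of 1 for *mep-1(RNAi)* against *gfp(RNAi)*, *dpl-1*, was 0 with quantile normalization, unscaled signals, no trend, only the 6 arrays compared, a 2-fold limit, the methods' t-test in both forms, and both *let-418(RNAi)* replicate 3 and *mep-1(RNAi)* replicate 2 left out, and 0 to 1 with single arrays left out. The cause was not tested. With the replicate block the counts were 0, 1 and 0, and no call among the 10 genes changed. Between the knockdowns the count was 0 throughout. Of 540 log2 fold changes of the 10 genes under alternatives, 496 kept their sign and their side of the threshold, 11 lost a call (all *dpl-1*), 1 gained it, 32 changed sign without a call in either fit, and 0 changed sign with one. The methods' t-test at p of at most 0.01 with a 2-fold limit called 0 of the 10 genes in each comparison. Without scaling, the median over all probe sets lay at -0.10 and -0.27 (log2), against -0.03 and 0.02 with it. The 5 mitotic genes called lower for *let-418(RNAi)* were 2 or 3 without any 1 of the *let-418(RNAi)* or *gfp(RNAi)* arrays or *mep-1(RNAi)* replicate 2, 2 without the trend or with the methods' t-test after adjustment, 3 with the replicate block and 0 unscaled. The 0 for *mep-1(RNAi)* was 1 without *mep-1(RNAi)* replicate 1 or 2, and 3 with averaged probe sets. The 4 intestine markers lower for *let-418(RNAi)* were 1 without *let-418(RNAi)* replicate 1 or 2 and 2 without *gfp(RNAi)* replicate 2 or 3, and 1 unscaled, without the trend, or with the methods' t-test after adjustment, which also gave 1 in place of 3 for *mep-1(RNAi)*. The 9 and 8 replication genes called lower were 1 and 4 unscaled and 5 and 3 with that t-test. With a 2-fold limit each of these counts was 0.

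With 3 arrays per group, the standard errors of the representative probe sets were 0.13 to 0.29 on the log2 scale. Without detection calls, a dim signal cannot be told from background. The position of the probe sets along the transcripts was not used here.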
